A study of Mus musculus with 12 samples.

Results

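The genes described here encode the oxidative phosphorylation system, measured by bulk RNA sequencing in mouse Ly6C+ monocytes. They were chosen by name: protein-coding genes of the deposited table whose symbol starts with mt-, Ndufa, Ndufb, Ndufc, Ndufs, Ndufv, Sdha, Sdhb, Sdhc, Sdhd, Uqcr, Cox4i, Cox5, Cox6, Cox7, Cox8 or Atp5. The rule took 113 of 55487 genes, of which 13 lie in the mitochondrial genome and 100 in the nucleus. By complex they were 52 genes of complex I, 8 of complex II, 9 of complex III, 24 of complex IV and 20 of complex V, with 12 assembly factors of complexes I and II among them. Reads sufficed to test 108 of them. The 5 left out were Cox7b2, Cox8b, Cox8c, Ndufa4l2 and a second entry of Atp5o, with 0 to 14 reads each over all libraries.

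Oxidative phosphorylation takes electrons from NADH and succinate through complexes I and II, passes them by coenzyme Q, complex III and cytochrome c to complex IV, and uses the proton gradient built on the way to make ATP in complex V. Complex II is encoded wholly in the nucleus, whereas the other complexes join subunits made from the mitochondrial genome to subunits imported from the cytosol. Some positions of complex IV and the c ring of complex V are filled by products of several genes. In myeloid cells the balance between this system and glycolysis shifts with maturation and activation.

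The study is titled as one of cMaf, Zeb2 and primitive haematopoiesis. Its 12 libraries were each made from the same number of isolated Ly6C+ monocytes and fall into 4 groups of 3, named here as in the sample titles. BM monocytes came from bone marrow of wild-type mice whose age is not given. KO monocytes came from E13.5 fetal liver of animals labelled KO, WT monocytes from wild-type fetal liver at E13.5 (library 1) and E15.5 (libraries 2 and 3), and Mixed monocytes from E15.5 fetal liver labelled wild type. The labels used here say neither which allele is deleted, nor what was mixed, nor which markers besides Ly6C were used to isolate the cells, and the series' design text speaks of tissue macrophages and of a line called Z165KO instead. Whether replicates were drawn from different animals is not stated, so p-values measure the spread between these libraries, which may be technical.

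The libraries held 17384956 to 24473502 counts. Zeb2, a transcription factor named in the study's title, stood at 20.1 to 23.8 CPM in KO and 141.4 to 164.8 CPM in WT (log2 fold change -2.75, adjusted p = 3.95e-17 in edgeR's quasi-likelihood test), in the direction of the KO label if Zeb2 is the gene that is lost. CPM here are counts per 1000000 after TMM scaling. The Ly6C transcript Ly6c2 and 9 further monocyte genes were present in every group, with summed levels of 34680 to 35380 CPM in BM, 14290 to 14380 in Mixed, 10760 to 12270 in WT and 7474 to 8433 in KO. Of the 10 genes, 7 were lower in KO than in WT and 3 higher, namely Ly6c2 (log2 fold change 1.54), Itgam (0.59) and Fcgr1 (0.33). In BM 8 were higher than in WT and 1 lower. Other cell types' genes moved with the groups too. All 9 conventional dendritic cell genes were higher in KO than in WT (788.5 to 804.8 against 37.9 to 56.8 summed CPM). Their sum was 165.6 to 172.8 CPM in BM, where 5 were higher than in WT and 1 lower, and 31.3 to 35.5 in Mixed. Summed neutrophil genes ran from 2029 to 2318 CPM in BM, 8895 to 9101 in Mixed, 10020 to 12500 in WT and 12920 to 15690 in KO. Within that list 4 of 10 genes were higher in KO than in WT, S100a8 and S100a9 (0.9 and 2.35) among them, and 2 were lower, Mpo (2072 against 5487 CPM, -1.4) and Elane (-1.08). In BM 6 of the 10 were lower than in WT and 2 higher, Elane (0.48) and Mmp8 (0.9). Summed erythroid genes ran from 5.44 to 22.2 CPM in BM, with Hbb-y at 0, against 614.1 to 1895 over the fetal libraries. How far these cells or their RNA enter the levels below was not tested, and in bulk samples a change in the share of cells of a type and a change in RNA per cell cannot be told apart.

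Relative to all counts, RNA of the system was lower in bone marrow than in fetal liver monocytes. The difference was larger for the genes of the mitochondrial genome than for those of the nucleus. The 13 mitochondrial genes made up 0.929, 0.883 and 0.913% of all counts in the BM libraries, against 1.88, 1.72 and 1.91% in WT, 1.68, 1.87 and 1.72% in KO and 1.44, 1.55 and 1.57% in Mixed. Every BM library lay below every fetal one, and every Mixed library below every KO and WT library. The nuclear subunit genes summed to 13120 ± 158 CPM in BM (SD, n = 3), 17120 ± 751 in KO, 16220 ± 133 in Mixed and 16690 ± 143 in WT. The mitochondrial sum in BM was thus 0.514 of that in WT, and the nuclear sum 0.786. The ratio of the mitochondrial to the nuclear sum was 0.7 ± 0.0152 in BM, 0.912 ± 0.0428 in Mixed, 1.07 ± 0.0568 in WT and 1.07 ± 0.0338 in KO, so that KO and WT overlapped on this measure and BM and Mixed each stood alone. The mitochondrial ribosomal RNA genes, which are no members, took 0.0985 ± 0.0052% of counts in BM, 0.19 ± 0.0265% in Mixed, 0.304 ± 0.0305% in KO and 0.31 ± 0.038% in WT.

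**Figure D1:**
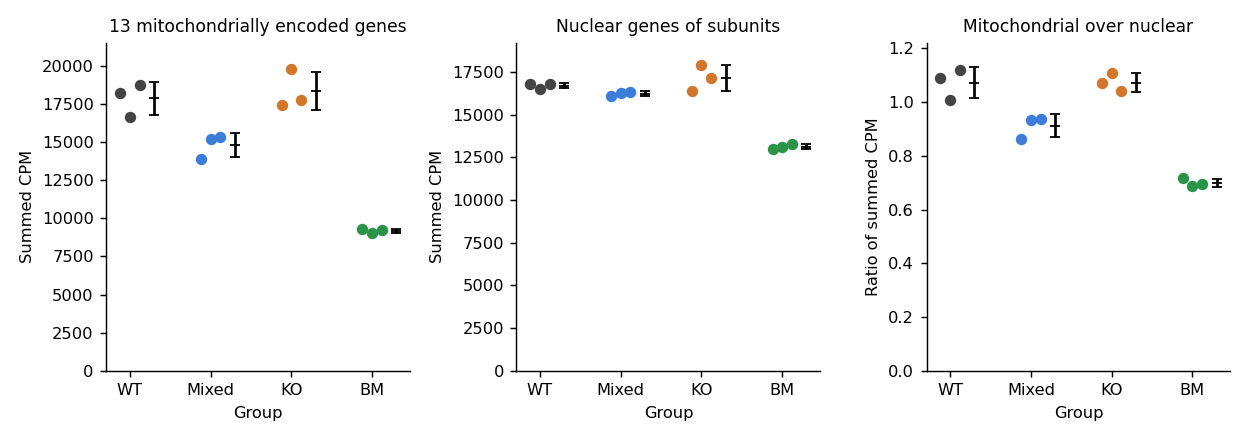
Summed CPM of the 13 mitochondrially encoded genes (left), summed CPM of the nuclear subunit genes (middle) and the ratio of the first to the second (right), by group. Each point is 1 library, and the bar beside the points is the mean with its SD (n = 3). BM libraries sit lowest in all 3 panels, with mitochondrial sums near 9183 CPM against 17870 in WT, and Mixed libraries sit between BM and the other fetal groups in the left and right panels.

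Among single genes, 93 of the 108 tested members differed between BM and WT (edgeR quasi-likelihood test, adjusted p under 0.05 over all 14618 genes tested), where 64% of all genes did. By direction, 86 members were lower in BM, where 31.9% of all genes were, and 7 were higher, where 32.1% were. The median log2 fold change was -0.97 over the mitochondrial genes, -0.37 over the nuclear subunit genes and 0.00 over all genes tested. For 76 members all 3 BM libraries lay below the other 9 libraries, as they did for 23% of all genes, and for 5 members they lay above, against 23.9%. Those 5 were mt-Nd3, Ndufa1, Ndufaf7, Cox6b2 and Cox7a2l. Against Mixed, a group at a single embryonic age, the same test gave 91 members that differed (58.4% of all genes did), 85 lower (28.9%) and 6 higher (29.5%). Both comparisons use the same BM libraries.

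The 13 mitochondrial genes encode 7 subunits of complex I, cytochrome b of complex III, 3 subunits of complex IV and 2 of complex V, and they are read as long transcripts that are then cut into the single messengers. In BM 12 of the 13 were lower than in WT, by log2 fold changes of -0.66 (mt-Atp8) to -1.39 (mt-Nd4l). The transcript of cytochrome b, mt-Cytb (chrM:14145-15288, plus strand), stood at 1101, 1071 and 1066 CPM in BM. It stood at 2645, 2441 and 2684 CPM in WT, 2512, 2830 and 2602 in KO and 1966, 2204 and 2192 in Mixed. All BM values were below every fetal value, and the fold change against WT was -1.26 on the log2 scale (SE 0.0554, adjusted p = 1.5e-14).

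One mitochondrial gene went the other way. The complex I subunit gene mt-Nd3 (chrM:9459-9806, plus strand), between mt-Co3 and mt-Nd4l on the genome, stood at 31.1, 28 and 29.3 CPM in BM but at 7.81, 5.94 and 8.03 in WT, 5.41, 5.73 and 5.54 in KO and 3.25, 4.51 and 5.39 in Mixed. Its BM level was 4.06 times that of WT (log2 fold change 2.02, SE 0.148, adjusted p = 8.57e-11), while its neighbour mt-Nd4l fell by 1.39 on the log2 scale and mt-Co3 by 1.14. Per length, on the deposited TPM scale, mt-Nd3 averaged 55 in WT and 239.2 in BM, and mt-Nd4l 555.3 in WT and 236.8 in BM. In the fetal groups mt-Nd3 was thus the mitochondrial gene with the lowest level per length, and in BM it stood beside mt-Nd4l. It overlaps no other gene of the mitochondrial genome's coding set. The pairs mt-Atp8 and mt-Atp6 (43 bases) and mt-Nd4l and mt-Nd4 (7 bases) overlap on the same strand, where strand-aware counting would not part them. The pair mt-Nd5 and mt-Nd6 (14 bases) overlaps on opposite strands, and counting is not stated to have used the strand. The values within each of these pairs therefore cannot be fully parted.

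**Figure D2:**
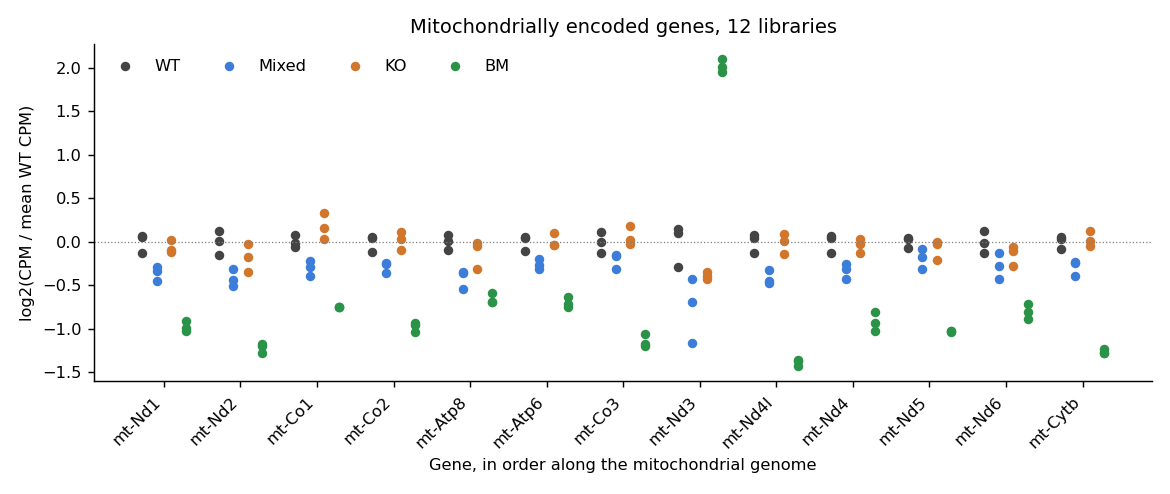
Level of each of the 13 mitochondrially encoded genes in the 12 libraries, as log2 of CPM over the mean of the 3 WT libraries, in order along the mitochondrial genome. Each point is 1 library and the dotted line is the WT mean. BM points lie below the fetal points for 12 genes and near 2 for mt-Nd3, and Mixed points lie below the dotted line for all 13.

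Mixed monocytes differed from WT in few genes of the whole table, 8.07%, but in 30 of the 108 members, and all 30 were lower (3.87% of all genes were lower and 4.21% higher). Of the 30, 11 were mitochondrial, with log2 fold changes of -0.26 (mt-Atp6) to -0.73 (mt-Nd3). The other mitochondrial genes, mt-Nd5 (-0.18, adjusted p = 0.0591) and mt-Co3 (-0.21, adjusted p = 0.0564), missed the threshold. DESeq2, run as an alternative, gave 37 members lower and 2 higher, with all 13 mitochondrial genes among the lower ones (mt-Nd5 at adjusted p = 0.0297 and mt-Co3 at 0.0243). The gene of the largest complex IV subunit, mt-Co1, stood at 2300, 2467 and 2594 CPM in Mixed and 2984, 2884 and 3176 in WT, without overlap (log2 fold change -0.3, SE 0.0622, adjusted p = 0.00605). That call was lost with the embryonic day as covariate (-0.3, adjusted p = 0.0694). The call of mt-Nd3 was lost with the day (adjusted p = 0.104) and without Mixed 1 (0.0681). In 14 of 21 alternative fits mt-Nd6 kept its call. For mt-Nd1, mt-Nd2, mt-Nd4, mt-Nd4l, mt-Cytb, mt-Co2, mt-Atp6 and mt-Atp8 it held in all 21. The nuclear members that fell were 19, with none higher. They included Uqcrb of complex III (-0.32, adjusted p = 0.00416), Cox7c of complex IV (-0.28, adjusted p = 0.00999), Atp5k and Atp5md of the membrane part of complex V (-0.31 and -0.41, adjusted p = 0.00774 and 0.00931) and the assembly factor Ndufaf4 (-0.48, adjusted p = 0.00779).

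The number of nuclear members called varied with single libraries. Without Mixed 1 or without WT 1, the only E13.5 library of its group, 1 nuclear member remained lower, and without Mixed 3 or without WT 2 there were 10. The mitochondrial genes lower in Mixed numbered 9 to 12 over the same 4 fits. The shares of all genes called in these fits and in the one with embryonic day are not given here. The drop in nuclear members thus cannot be set apart from fewer calls over all genes. KO libraries are all E13.5 and Mixed libraries all E15.5, so an effect of embryonic day can be estimated from WT alone, with WT 1 its single E13.5 library. With the day as a covariate in the 9 fetal libraries, 8 mitochondrial and 2 nuclear members were lower in Mixed. The median over the 13 mitochondrial genes was -0.3 in the fit of all libraries and -0.29 with the day as covariate. Leaving out WT 1 compares Mixed with WT at E15.5 alone, where 10 mitochondrial genes were lower.

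KO monocytes showed no common direction. Against WT, 34 members differed, 16 higher and 18 lower, that is 31.5% of those tested where 38.1% of all genes differed (18.2% higher and 19.9% lower). This split rested on the scaling: with library totals alone, which moved the median of all genes from -0.03 to -0.13, 4 members were higher and 42 lower. Without KO 2 there were 7 higher and 20 lower, and with the embryonic day as covariate 8 higher and 16 lower. Of the mitochondrial genes, mt-Co1 passed the test in KO (3083, 3795 and 3359 CPM, log2 fold change 0.18, adjusted p = 0.0282), with values that overlapped those of WT. That call was lost with library totals alone (adjusted p = 0.303), with the embryonic day as covariate (0.152), without KO 2 (0.241), without WT 1 (0.0869) and without WT 2 (0.124). Other settings gave calls the other way: with library totals alone 6 mitochondrial genes were lower in KO and none higher, namely mt-Nd1 (-0.16), mt-Nd2 (-0.28), mt-Nd3 (-0.48), mt-Nd5 (-0.18), mt-Nd6 (-0.25) and mt-Atp8 (-0.22). Without WT 2, mt-Nd2 (-0.25, adjusted p = 0.0198) and mt-Nd3 (-0.51, adjusted p = 0.0219) were lower, and 1 of these passed without KO 2 (mt-Nd2) and without Mixed 1 or Mixed 3 (mt-Nd3). The mitochondrial median against WT was -0.04, or -0.14 with library totals alone.

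Some KO differences were gene by gene and larger than the spread between libraries. The gene of the usual subunit 4 of complex IV, Cox4i1, stood at 839.8, 886.8 and 848.1 CPM in KO and 697, 711.5 and 702.9 in WT (log2 fold change 0.29, SE 0.0459, adjusted p = 3.27e-05). Ndufb11, an accessory subunit of complex I encoded on the X chromosome, stood at 206.8, 225.1 and 210.6 CPM in KO and 171.3, 171.1 and 176.2 in WT (0.31, adjusted p = 4.62e-05). Neither gene's KO libraries overlapped those of any other group. Sdhb, the iron-sulfur subunit of complex II, was higher as well (0.21, adjusted p = 0.00317), though not with library totals alone (0.1, adjusted p = 0.101). Lower in KO were the accessory complex I genes Ndufa5 (-0.37, adjusted p = 0.00175), Ndufab1 (-0.29, adjusted p = 0.00321) and Ndufb4 (-0.4, adjusted p = 0.00122) and, in complex III, Uqcrb (-0.3, adjusted p = 0.000839). Of these lower genes, Ndufa5 (-0.38), Uqcrb and Ndufb4 were below WT in Mixed too, Ndufb4 in 7 of 21 alternative fits. None of them differed between KO and Mixed in the fit of all libraries. Ndufb4 is an uncertain value: the like-named gene Ndufb4c received 196% of its reads, and Ndufa12-ps and Ndufab1-ps received 47.2% and 7.58% of the reads of Ndufa12 and Ndufab1.

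Set against Mixed, KO members ran higher: 43 differed (36.7% of all genes did), 36 higher (18.2%) and 7 lower (18.5%). The higher ones included 10 of the 13 mitochondrial genes, and the mitochondrial median was 0.29. The split was 20 higher and 16 lower with library totals alone, of which 9 of the higher were mitochondrial. Without KO 1, KO 2 or Mixed 1 there were 4 lower. KO and Mixed differ in embryonic day, and with the day as covariate 4 members differed, 3 higher and 1 lower. The share of all genes called in that fit of 9 fetal libraries is not given here. The lower count is therefore not read as a result about the members. The day term rests on WT 1 here too, and the mitochondrial median was 0.2 in that fit. This comparison shares its KO libraries with the one against WT, and its Mixed libraries with the one of Mixed and WT.

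**Figure D3:**
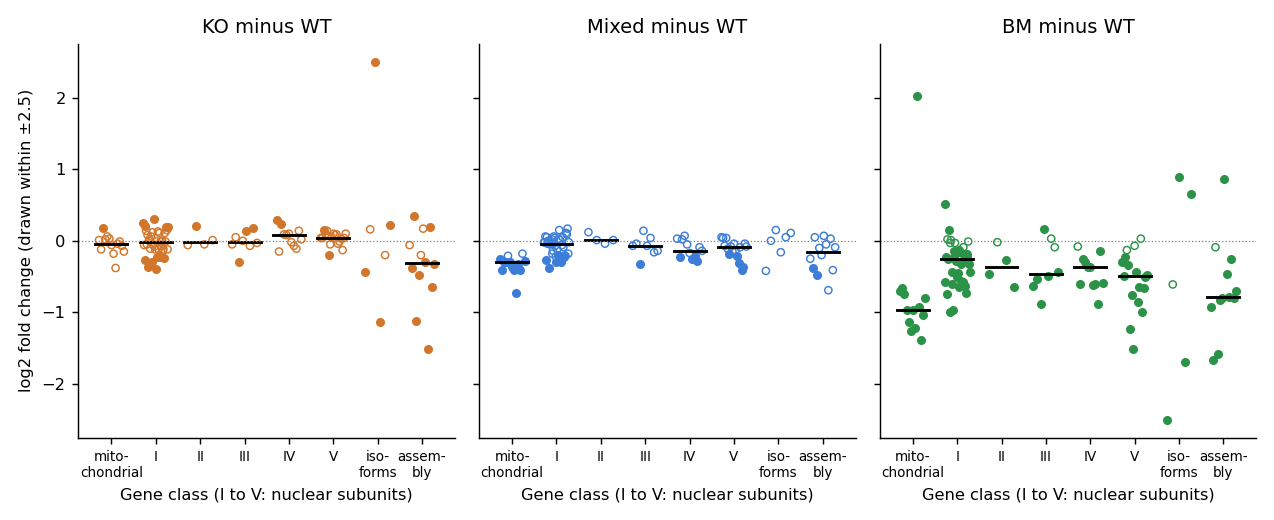
Log2 fold changes against WT of the tested members by class, for KO (left), Mixed (middle) and BM (right). Filled points passed the test (adjusted p under 0.05) and open points did not. The bar is the class median, not drawn for the isoforms. Values beyond 2.5 in either direction are drawn at that limit. Classes I to V are the nuclear subunit genes, and Cox6a2 is left out of the right panel because BM held 1 read of it. In the left panel Cox6a2 is drawn filled at 2.5, although it passed the filter on low counts only through KO. The mitochondrial median moves from -0.04 in KO to -0.3 in Mixed and -0.97 in BM.

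By complex, the nuclear subunit genes of all 5 complexes were lower in BM than in WT, and the order of the complexes depended on whether levels were summed or ranked gene by gene. Over all genes tested, 31.9% were lower and 32.1% higher. Of complex I, 29 of 37 were lower and 2 higher (median log2 fold change -0.26). Its core subunits, which carry the redox centres and the quinone site, were lower for 5 of 7 (median -0.22), and Ndufs1, the largest of them, stood at 103.3, 112.8 and 107.7 CPM in BM and 159.7, 175.6 and 148.7 in WT (log2 fold change -0.58, adjusted p = 4.53e-08). The 2 that were higher were accessory subunits: Ndufa1 stood at 78.5, 80.1 and 85.1 CPM in BM and 57, 53.1 and 60.4 in WT (0.52, adjusted p = 3.74e-06). Ndufa3 was higher by 0.15 (adjusted p = 0.0206), a call lost with library totals alone (adjusted p = 0.116), no filter on low counts (0.191), only the 2 groups in the fit (0.0769), without BM 2 (0.0975) and without WT 2 (0.145). Furthest down were Ndufa5, with 41.8, 35.6 and 38.1 CPM in BM and 86, 69.3 and 74.7 in WT (-0.99, adjusted p = 2.31e-09), and Ndufab1, the acyl carrier protein, with 50.3, 44.6 and 47 in BM and 101, 93.7 and 81.9 in WT (-0.96, adjusted p = 2.59e-10). Ndufa6, Ndufa7 and Ndufa13 lay within 0.03 of WT on the log2 scale, and Ndufv1, which binds NADH, at -0.01.

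Complex II, which also belongs to the citric acid cycle, had 3 of 4 subunit genes lower in BM (median -0.37). Sdhd, a membrane anchor, stood at 206.8, 215.6 and 215.4 CPM in BM and 313.4, 335.2 and 345.1 in WT (-0.64, adjusted p = 7.73e-10), and Sdha, the flavoprotein, fell by 0.47 on the log2 scale. Sdhb differed by -0.02 (adjusted p = 0.796). In complex III, 5 of 8 were lower and 1 higher (median -0.46). Uqcrb stood at 155.9, 138.2 and 146.9 CPM in BM and 294.5, 252.1 and 265.2 in WT (-0.88, adjusted p = 1.14e-10). The higher one was Uqcrc1, a core protein, with 711.9 ± 30.4 CPM in BM and 631.3 ± 34.9 in WT (0.17, adjusted p = 0.00925), a call lost with library totals alone (adjusted p = 0.0576), without BM 2 (0.112) and without WT 1 (0.076).

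In complex IV, 10 of the 11 usual nuclear subunit genes were lower in BM (median -0.37), with Cox7c furthest down (140.8 ± 11.3 against 259.3 ± 13.7 CPM, -0.88, adjusted p = 1.08e-10). Cox4i1 was the one that missed the threshold (-0.08, adjusted p = 0.116). In complex V, 14 of 17 were lower (median -0.49), spread unevenly over its parts. The catalytic F1 genes had a median of -0.29 (4 of 5 lower), the peripheral stalk -0.46 (3 of 4), the small membrane subunits -0.66 (4 of 5) and the c ring -1.23 (3 of 3). Of the small membrane subunits, which help complex V form dimers, Atp5md stood at 67.6, 54.6 and 65.6 CPM in BM and 141.1, 114.5 and 118.9 in WT (-1, adjusted p = 2.28e-08), whereas Atp5l differed by 0.03 (adjusted p = 0.719). Summed over nuclear subunits, the level in BM was 0.825 of WT for complex I, 0.768 for II, 0.857 for III, 0.781 for IV and 0.734 for V. Over the mitochondrial genes of the same complexes it was 0.507 for I, 0.417 for III, 0.512 for IV and 0.618 for V. The mitochondrial part was thus the lower one in each of the 4 complexes that have both, and the gap was narrowest in complex V. In KO the nuclear sums were 0.987 (complex III) to 1.07 (complex IV) of WT with TMM scaling, and all 5 lay below WT on the deposited TPM scale, by log2 ratios of -0.07 to -0.19.

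The c ring turns as protons pass through complex V, and 3 genes encode its identical subunit. Atp5g3 stood at 98.3, 95.5 and 106.5 CPM in BM, against 294.2, 282.1 and 282 in WT, 285.2, 318.6 and 287.2 in KO and 256.5, 261.2 and 255.5 in Mixed. Its log2 fold change in BM was -1.51 (SE 0.0576, adjusted p = 1.31e-15), the lowest value of any nuclear subunit gene outside the alternative isoforms. Atp5g1 stood at 82.9, 85.9 and 84.9 CPM in BM and 207.1, 196.4 and 192.1 in WT (-1.23, SE 0.0529, adjusted p = 1.04e-14). It was also lower in KO (-0.2, adjusted p = 0.0035). Atp5g2 fell least, from 104.1 ± 4.7 CPM in WT to 61.5 ± 6.41 in BM (-0.76, adjusted p = 4.92e-08). The make-up of the messenger pool for the subunit shifted accordingly. Per length, Atp5g2 gave 27.1 ± 1.53% of the summed TPM of the 3 genes in BM and 18.9 ± 1.19% in WT, and Atp5g3 37.5 ± 0.728% and 44.8 ± 0.948%. The summed TPM of the 3 was 637.4 ± 21 in BM, 1240 ± 18.1 in KO, 1306 ± 13.6 in Mixed and 1414 ± 58.2 in WT.

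Promoter stretches of 4 members are printed to show how the windows differ between members with large changes in BM: the c subunit genes Atp5g1 and Atp5g3, the assembly factor gene Ndufaf4, which like them was lower in BM, and Cox7a2l, which was higher there. They come from the RefSeq promoter table for GRCm38.p6, run 5′ to 3′ on the gene's strand, and hold bases before the start that no exon of GENCODE M21 covers. Capitals mark matches, on either strand, to the letters searched: CCAAT (the NF-Y box), GGGCGG (Sp1), GCATGCGC (core of the NRF1 site), CCGGAAG (ETS factors such as GABP), AAGATGGC (YY1) and TCAAGGTCA (oestrogen-related receptors). The stretches lie at chr11:96075671-96075870 (minus strand, Atp5g1), chr2:73911327-73911526 (minus, Atp5g3), chr4:24897883-24898082 (plus, Ndufaf4) and chr17:83514334-83514533 (minus, Cox7a2l, inside the gene as GENCODE annotates it).
Atp5g1: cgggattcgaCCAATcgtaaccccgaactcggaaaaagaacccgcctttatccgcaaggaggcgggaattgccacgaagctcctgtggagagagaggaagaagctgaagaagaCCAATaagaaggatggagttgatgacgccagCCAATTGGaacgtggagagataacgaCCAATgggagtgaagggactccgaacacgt
Atp5g3: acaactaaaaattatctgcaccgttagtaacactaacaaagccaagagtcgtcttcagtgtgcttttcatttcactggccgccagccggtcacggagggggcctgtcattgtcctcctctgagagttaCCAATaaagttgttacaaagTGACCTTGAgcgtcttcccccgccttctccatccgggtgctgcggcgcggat
Ndufaf4: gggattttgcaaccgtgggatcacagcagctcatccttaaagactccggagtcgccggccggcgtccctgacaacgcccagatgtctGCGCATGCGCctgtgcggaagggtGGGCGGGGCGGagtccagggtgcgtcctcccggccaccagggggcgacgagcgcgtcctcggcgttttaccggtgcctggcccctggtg
Cox7a2l: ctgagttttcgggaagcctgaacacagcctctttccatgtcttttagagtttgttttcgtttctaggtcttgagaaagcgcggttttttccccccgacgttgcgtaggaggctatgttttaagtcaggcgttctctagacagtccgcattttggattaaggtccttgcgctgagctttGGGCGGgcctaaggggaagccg
The Atp5g1 stretch held CCAAT 5 times over both strands, a pair of them at overlapping letters, and the Atp5g3 stretch held it once beside the receptor motif. Ndufaf4 held the NRF1 core on both strands at overlapping letters and GGGCGG in a tandem pair, and Cox7a2l held GGGCGG once. Stretches of Atp5g2, Uqcrc1 and Cox7a1 were searched too and are not printed. That of Cox7a1 held CCAAT. Those of Atp5g2 and Uqcrc1 held no match, although the windows of these genes described below held the NRF1 core.

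Windows of 250 bases before and 50 after the start were found for 80 of the 99 nuclear symbols. The NRF1 core was in 15% of them and in 3.05% of the windows of all 27025 genes in the table, the ETS letters in 27.5 and 9.93%, the YY1 letters in 13.8 and 3.19%, GGGCGG in 48.8 and 38.2%, and CCAAT in 43.8 and 41.1%. The full NRF1 site, which contains the core, was in 8.75 and 1.07%. The receptor motif was in 2 windows, those of Atp5g3 and Sdhd (2.5 against 0.466%). A match is a description of letters, and none says that a factor binds. Of the 12 members with the NRF1 core, Ndufaf4, Ndufaf5, Ndufa8, Ndufa11, Uqcr11, Cox6a1, Atp5g2 and Atp5k were lower in BM than in WT. Uqcrc1 was higher there, and Ndufa6, Sdhb and Atp5l did not pass the test. Of the 95 nuclear members tested, 77.9% were lower in BM and 6.32% higher, beside 31.9 and 32.1% of all genes. Whether the motif bears on the change was not tested.

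Where a subunit of complex IV has more than 1 gene, the rarer forms differed most between the groups. Cox4i2 (chr2:152754173-152765037, plus strand), the alternative subunit 4 known from lung and from responses to low oxygen, stood at 11.9, 12.5 and 10 CPM in WT, 8.6, 9.24 and 7.79 in Mixed and 9.09, 8.25 and 8.16 in KO. In BM it was at 0.275, 0.233 and 0.298 CPM, 16 reads in all against 706 in WT (log2 fold change -5.39, SE 0.225, adjusted p = 6.15e-15). It was a minor form throughout: per length it gave 1.63 ± 0.184% of the summed TPM of Cox4i1 and Cox4i2 in WT, 1.19 ± 0.0931% in Mixed, 0.995 ± 0.0784% in KO and 0.0409 ± 0.00584% in BM. Its fall in KO (-0.43, adjusted p = 0.0183) was lost without KO 2 (adjusted p = 0.0523), KO 3 (0.0619), WT 1 (0.0603) or WT 2 (0.0946), with no filter on low counts (0.0796) and with the embryonic day as covariate (-0.46, adjusted p = 0.0898).

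Cox6a2, the subunit 6a of heart and muscle, stood at 2.68, 1.89 and 2.2 CPM in KO and at 0.223, 0.357 and 0 in WT, from 147 reads against 12. It passed the filter on low counts only through KO, so its levels are given without a test. It is still counted among the 16 members higher in KO than in WT and the 36 higher in KO than in Mixed. The 86 members lower in BM than in WT and the 85 lower in BM than in Mixed include it too. Mixed libraries held 14 reads of Cox6a2 and BM libraries 1. Even in KO it gave 0.529 ± 0.125% of the summed TPM of Cox6a1 and Cox6a2. The KO libraries also held the highest sum of the dendritic cell genes given above, with BM next. The part of such cells in the level of Cox6a2 was not tested.

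Cox6b2, known as the testis form of subunit 6b, moved in opposite directions in KO and BM. It stood at 12.4, 13 and 15.4 CPM in BM, 6.81, 6.34 and 8.83 in WT, 6.45, 7.1 and 6.11 in Mixed and 2.91, 3.57 and 3.59 in KO. KO lay below all other groups (log2 fold change against WT -1.13, SE 0.169, adjusted p = 1.41e-05) and BM above them (0.89, SE 0.153, adjusted p = 2.85e-05). Its share of the subunit 6b TPM was 8.37 ± 0.834% in BM, 3.56 ± 0.515% in WT, 3.4 ± 0.475% in Mixed and 1.66 ± 0.103% in KO.

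The subunit 7a family changed its balance in BM. Cox7a2, the common form, fell to 113.8 ± 4.83 CPM from 174.6 ± 7.25 in WT (-0.62, adjusted p = 7.65e-09), and the muscle form Cox7a1 to 0.669 ± 0.0225 from 2.19 ± 0.0823 (-1.7, adjusted p = 3.07e-05). Cox7a2l, whose product joins complexes III and IV into supercomplexes, rose instead: its BM libraries held 209.4, 206.9 and 198.5 CPM, against 127.5, 134.7 and 130.8 in WT (0.65, SE 0.0543, adjusted p = 8.33e-10). It gave 48.6 ± 1.46% of the family's TPM in BM and 28 ± 1.29% in WT. In KO it was at 145, 160.7 and 153.3 CPM, also above WT (0.22, adjusted p = 0.00236) but not with library totals alone (0.12, adjusted p = 0.0754). No reads of Cox8b were found in any library (a count of 0 allows up to 3), 2 of Cox8c and 4 of Cox7b2, while Cox8a and Cox7b stood at 203.6 and 172.7 CPM in WT.

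**Figure D4:**
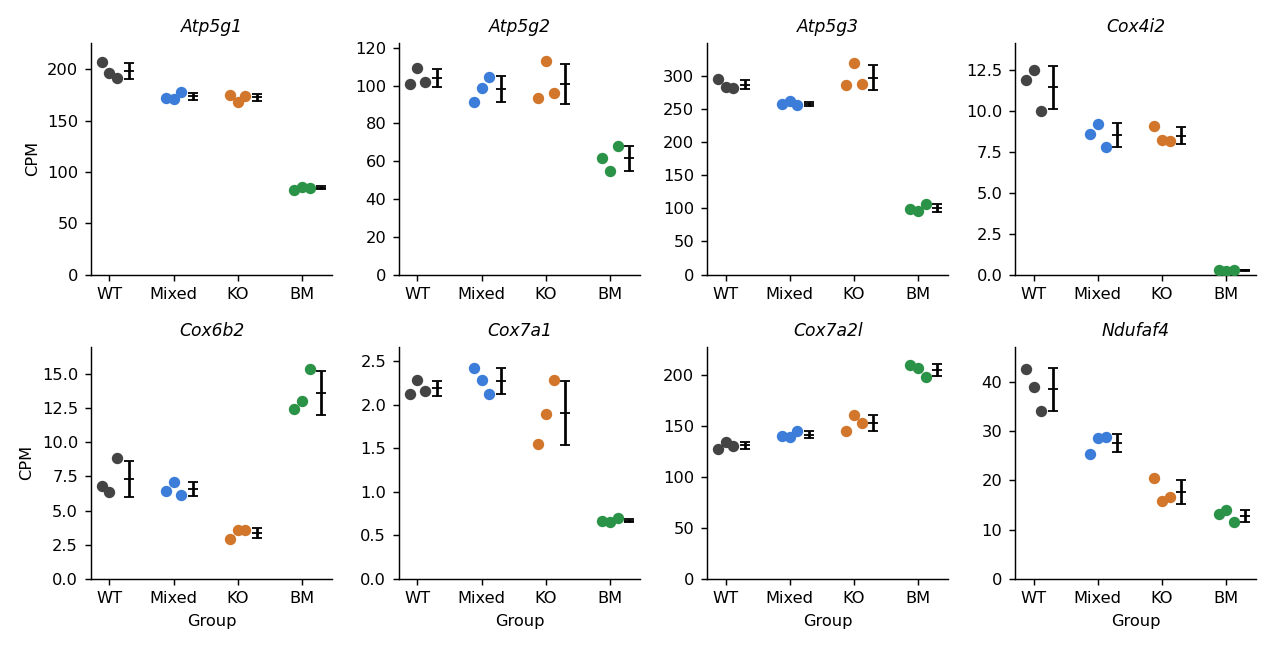
CPM of 8 members by group. Each point is 1 library, and the bar beside the points is the mean with its SD (n = 3). The c ring genes, Cox4i2, Cox7a1 and Ndufaf4 are lowest in BM, whereas Cox6b2 and Cox7a2l are highest there and Cox6b2 is lowest in KO.

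Assembly factors build complexes I and II without staying in them. In KO, 7 of the 12 were lower than in WT and 2 higher (median -0.31), beside 9 lower and 11 higher of the 77 tested nuclear subunit genes and 19.9% lower and 18.2% higher of all genes. Ndufaf4 stood at 20.5, 15.9 and 16.6 CPM in KO and 42.7, 38.9 and 34 in WT (-1.12, SE 0.11, adjusted p = 3.5e-08), and its BM level was lower still, at 13.1, 13.9 and 11.5 CPM (-1.58, adjusted p = 6.03e-11). Mixed libraries lay between, at 25.4, 28.6 and 28.8 CPM, a fall whose call was lost without Mixed 1 (-0.43, adjusted p = 0.0625) or WT 1 (-0.4, adjusted p = 0.0641) and with the embryonic day as covariate (-0.39, adjusted p = 0.0735). Of the complex II factors, which help flavin and iron-sulfur insertion, Sdhaf1 was lower in KO (1.08 ± 0.258 against 3.11 ± 0.672 CPM, -1.51, adjusted p = 0.00115) and so was Sdhaf3 (-0.64, adjusted p = 0.0014). Ndufaf2, Ndufaf5, Ndufaf8 and Sdhaf4 fell by 0.29 to 0.48. Of these, Ndufaf8 kept the call in 11 of 21 alternative fits, and Ndufaf5 lost it without WT 1 (-0.38, adjusted p = 0.0684). Ndufaf3 was higher in KO (40.7, 43.6 and 42.6 against 33.6, 31.7 and 34.2 CPM, 0.35, adjusted p = 0.00095). Sdhaf2 was too (0.19, adjusted p = 0.0419), in 12 of 21 alternatives.

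In BM 10 of the 12 assembly factors were lower and 1 higher (median -0.79), where 31.9 and 32.1% of all genes were. Ndufaf2 fell furthest, to 7.97, 7.78 and 7.44 CPM from 26.3, 25.2 and 21.7 in WT (-1.66, SE 0.11, adjusted p = 1.5e-11). Ndufaf7, a methyltransferase that acts on a core subunit of complex I, rose to 68.5, 75.1 and 75.3 CPM from 38.6, 42.5 and 39.8 (0.86, SE 0.0773, adjusted p = 2.59e-09), with no overlap between BM and any other group.

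Per length, on the deposited TPM scale averaged over all libraries, the mitochondrial genes were the most abundant members of complexes I, III, IV and V. They were mt-Nd1 at 1752 TPM, mt-Cytb at 2664, mt-Co3 at 6977 and mt-Atp6 at 5618, and Sdhb led complex II at 387.9. The lowest tested members were Ndufaf5 at 10.2 TPM in complex I, Sdhaf1 at 1.09 in II, Uqcrc2 at 155.2 in III, Cox6a2 at 1.53 in IV and Atp5g2 at 233.5 in V.

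The machinery that reads the mitochondrial genome and imports the nuclear subunits was lower in BM as well, read against 31.9% lower and 32.1% higher among all genes. Of 78 mitochondrial ribosomal protein genes, 70 were lower and 1 higher (median log2 fold change -0.58), for example Mrpl12 (136.5 ± 8.12 CPM in WT, 49 ± 1.62 in BM, -1.48, adjusted p = 2.77e-14). Of 37 tested genes of protein import and cristae, 32 were lower (median -0.63), led by the matrix chaperonin genes Hspd1 (820.7 ± 60.8 against 175.8 ± 3.29 CPM, -2.22) and Hspe1 (-2.19) and by Timm8a1 (-2.17). Of 31 genes of mitochondrial transcription, RNA processing and DNA upkeep, 21 were lower and 6 higher (median -0.48), among the lower ones Fastkd2 (-1.5, adjusted p = 6.5e-13) and Lrpprc, which stabilises mitochondrial messengers (-1.01, adjusted p = 0.00179). Of 44 assembly factors outside the name rule, 24 were lower and 4 higher (median -0.35). Citric acid cycle genes were lower for 17 of 23 and higher for 3, with Suclg2 at -1.55 and the kinase Pdk2, which holds back pyruvate dehydrogenase, at 3.34 (11.5 ± 0.565 against 1.14 ± 0.0767 CPM).

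Against the same shares of all genes, electron carriers outside the complexes were lower in BM for 8 of 11 genes, cytochrome c (Cycs) among them (-0.6, adjusted p = 5.58e-07), and the exception was Sqor, which feeds electrons from sulfide to coenzyme Q (155.6 ± 6.95 against 13.8 ± 2.16 CPM, 3.49, adjusted p = 9.56e-18). Coenzyme Q synthesis genes were lower for 8 of 13 and higher for 4 (30.8%, near the share of all genes), with Coq3 at -1.7 and Coq8a at 1.64. Of 4 tested carriers of ATP, ADP, phosphate and protons, 3 were lower (Slc25a4 at -0.92) and Ucp2 higher (0.55, adjusted p = 2.72e-08). Of 13 nuclear regulators of these genes, 3 were higher and 3 lower (23.1% each, below the shares of all genes), with Myc at -1.72 (92.4 ± 2.3 in WT, 28.1 ± 0.986 in BM), Pprc1, a coactivator of the PGC-1 family, at -0.82, and Nrf1 at 0.29.

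In KO, where 19.9% of all genes were lower than in WT and 18.2% higher, the lists differed. Mitochondrial ribosomal protein genes were lower for 34 of 78 and higher for 3 (median -0.17), and import and cristae genes lower for 17 of 37 (median -0.2), with Timm8a1 at -0.95 (adjusted p = 6.33e-09). Of the transcription and RNA genes, 13 of 31 were lower and 1 higher: Fastkd1 stood at 6.09 ± 0.706 CPM against 14.7 ± 1.11 (-1.27, adjusted p = 8.45e-08) and Lrpprc at -1.19 (adjusted p = 0.00126). Outside assembly factors were lower for 14 of 44 and higher for 4. Pprc1 (-0.84, adjusted p = 1.56e-08) and Myc (-0.64, adjusted p = 3.15e-06) were lower, and Tfeb was higher (0.36). Of the electron carriers, 2 of 11 were higher and 5 lower. The higher ones were Cycs (380.9 ± 30.1 against 270.3 ± 33 CPM, 0.49, adjusted p = 1.89e-05), and Gpd2, the glycerol phosphate dehydrogenase that reduces coenzyme Q (0.61, adjusted p = 8.59e-09), and Prodh was among the lower ones (-1.71). Of 13 coenzyme Q synthesis genes, 3 were higher (Coq2, Coq4 and Coq8a, at 1.03, 0.84 and 1.03) and 4 lower, Coq3 (-0.47) and Coq5 (-0.24) among them. In the citric acid cycle 6 of 23 were higher and 8 lower, with Pdk3 at 0.9 and Idh3a at -0.58.

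In Mixed, where 3.87% of all genes were lower and 4.21% higher, ribosomal protein genes were lower for 10 of 78 and import and cristae genes for 12 of 37, with none higher in either list. Hspe1 (-0.54, adjusted p = 8.96e-05) and Hspd1 (-0.39, adjusted p = 0.000355) were among the latter. Of the 31 transcription and RNA genes 2 were lower and 2 higher: Slirp, the RNA-binding partner of Lrpprc, was lower (-0.33, adjusted p = 0.0105), and the nuclease gene Mgme1 (0.29, adjusted p = 0.044) and Polg, the mitochondrial DNA polymerase gene (0.27, adjusted p = 0.0478), were higher. Ucp2 (0.32, adjusted p = 0.00228) and Sqor (0.53, adjusted p = 0.00275) were higher, whereas Cycs (-0.32, adjusted p = 0.0113) and Prodh (-0.44, adjusted p = 0.0249) were lower.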

How the data were processed

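Bulk RNA sequencing libraries were prepared from 12 samples of isolated monocytes. The deposited table gives, for each gene and library, estimated counts and the authors' TPM. Of the nonzero counts 28.5% were not whole (beyond 1e-06), so they were rounded. DRAGEN, STAR, Subread featureCounts, Salmon and the build mm10 are named in the submitters' processing notes, and the strand setting is not given in the sources used here. After removal of 287 rows that repeated a gene, 55487 genes stayed. Every sample's column was matched by title.

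Genes passing filterByExpr (10 counts, total 15) numbered 14618. They were fitted in 1 edgeR 4.0.16 quasi-likelihood model over 12 libraries with TMM scaling, a mean per group and Benjamini-Hochberg adjustment over all genes tested (adjusted p under 0.05), in R 4.3.3. DESeq2 1.42.0, other scalings, no filter, embryonic day or the replicate number as a term, and the omission of each library were alternatives, and adding pseudogene reads to their parents was chosen after seeing the data. CPM use TMM-scaled library sizes, and percentages of counts use raw totals. Isoform shares use the deposited TPM. The model was tested on simulated data.

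Replicate numbers did not pair the libraries: correlations of same-numbered deviations between groups were -0.0353 to 0.0693 (18 pairs). Members and lists were chosen with earlier results of these data known. The text names the 13 mitochondrial genes, called members above 3 log2 CPM with the 10 largest changes in each direction, isoforms, extremes of TPM per complex, and up to 3 called genes with the largest change per list. Genes, positions and exons follow GENCODE M21. Symbols not in the table were 2.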

Additional observations from a re-analysis of the deposited data

How the results depend on the processing

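The limits are few libraries, an age that differs in part between fetal groups, markers of other cells that move with the groups, and estimated counts with no stated strand. With 3 libraries a group, small changes are partly out of reach: at depths of 17384956 to 24473502 counts per library the precision of genes under 1 CPM is set by a handful of reads. Members called in Mixed minus WT ranged from 10 to 32 when 1 library was left out, and were 10 with embryonic day as a covariate. When 1 library was left out, the nuclear subunit median of KO minus Mixed ranged from 0.03 to 0.1. KO minus Mixed gave 4 members with the day as covariate, with a mitochondrial median of 0.2. The share of all genes called is given here only for the edgeR fit of all libraries with TMM scaling. Whether the counts of members moved more than the calls over all genes is thus not shown. With library totals alone the mitochondrial median was -0.14 for KO minus WT and 0.19 for KO minus Mixed, and the nuclear subunit median was -0.1 for KO minus WT, -0.42 for BM minus WT, -0.35 for BM minus Mixed and -0.02 for KO minus Mixed, where its sign turned. Without a filter on low counts the nuclear median of BM minus Mixed was -0.34. The cause of these shifts was not tested. Summed nuclear levels per complex gave log2 ratios of KO over WT, with library totals alone, of -0.1 (complex I), -0.08 (II), -0.12 (III), 0.00 (IV) and -0.05 (V), and on the deposited TPM of -0.16, -0.1, -0.19, -0.07 and -0.1. For BM over WT they were -0.33, -0.43, -0.28, -0.41 and -0.5 with library totals alone and -0.17, -0.24, -0.32, -0.28 and -0.41 on the TPM, with complex III at -0.24 when mitochondrial genes were left out of the scaling. For Mixed over WT the TPM gave -0.07 in complex III and -0.08 in complex V. With protein-coding counts as the denominator the mitochondrial share was 0.942% in BM and 1.59% in Mixed. In the last 100 bases before the start the motif shares of the members and of all genes were 7.5 and 1.71% (NRF1 core), 13.8 and 5.22% (ETS), 1.25 and 0.618% (YY1, 1 member), 30 and 27.3% (Sp1) and 28.7 and 21.6% (CCAAT), by construction a shorter window. No other total count of members moved by over 1.5 times. The fit with a replicate block gave 35 members called in KO minus WT, 27 in Mixed minus WT, 91 in BM minus WT, 41 in KO minus Mixed and 90 in BM minus Mixed, all within 1.5 times of the totals without it. Adding pseudogene reads to their parents left 34 members called in KO minus WT and 93 in BM minus WT.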
